A study of Mus musculus with 8 samples.

Results

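Choroid plexus epithelium genes were examined in whole cerebella of newborn mice, as a list of 45 genes known from this epithelium and matched by symbol to the authors' gene tables. All 45 members were among the 24062 genes of the tables, and all 45 passed the filter on low counts that left 15789 genes for testing. Cerebella were collected from single pups at postnatal day 2 and sequenced as polyA RNA, with 4 mutants and 4 control littermates of a mixed C57BL/6 strain. The mutants carried Math1-Cre, a floxed Sufu allele and a null Sufu allele (Sufu flox/-). The controls were Sufu flox/+, with 1 intact allele, per the series text, and the sources used here do not say whether they also had Math1-Cre. Per the labels, one parent of every litter was homozygous for Math1 mgfp, so all pups of both groups inherited that allele. Math1 (Atoh1) is a gene of the rhombic lip and of granule cell precursors, so Cre acted in part of the tissue only, while the null allele was present in every mutant cell.

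The choroid plexus is a folded sheet of epithelium over a stroma with leaky capillaries, and it makes cerebrospinal fluid. Its hindbrain portion lies in the roof of the fourth ventricle, attached to the cerebellum, and arises from the rhombic lip and roof plate. The epithelium is joined by tight junctions, pumps ions and bicarbonate into the ventricle with water following, and secretes carriers and growth factor regulators, of which transthyretin is the most abundant. A whole-tissue sample holds this epithelium only as far as it came along with the cerebellum, and many of the listed genes are also used by neurons, glia or meninges. Whether the members moved in one ratio was examined in the counts, as a description and not as a test of how much epithelium each sample held.

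Counts in genes came to 21479565 to 26638284 per library. The listed genes together took 0.256 to 0.497% of the gene counts in controls and 0.527 to 0.813% in mutants, and Ttr alone made up 48.7 to 70.2% of the members' counts. Sufu, the targeted gene, was lower in every mutant than in any control, with a log2 fold change of -0.59 (SE 0.11). All 12 pairs of libraries of 1 group were further apart than counting noise alone allows. The sample titles carry a letter, P or R, shared by replicates 1 and 2 or 3 and 4 of each group, whose meaning is not stated (controls 1 and 2 and mutants 1 and 2 are P). Cerebellar genes were present in all libraries, with En2 at 34.3 to 96.3 CPM (counts per 1000000 counts of the TMM-scaled library), and the choroid markers were too, since every library held at least 32226 counts of Ttr.

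Most members were higher in the mutants. Of the 45, 41 had a positive log2 fold change, against 52.3% of all genes tested, and 28 had an unadjusted p under 0.05 in the higher direction (edgeR quasi-likelihood test), against 6.94% of all genes. In 19 members all 4 mutants lay above all 4 controls, against 3.6% of all genes, and in 0 did all mutants lie below all controls, against 2.96%. The median log2 fold change of the members was 0.49, and that of all genes tested was 0.01. The list was chosen with earlier results of these data known, so these comparisons with all genes are a description and not a test. After adjustment over all 15789 genes, 0 members passed (0 of all genes did), with edgeR adjusted p from 0.381 to 0.996. DESeq2, run as an alternative, called 9 members, all higher in mutants: Wfikkn2, Kl, Clic6, Trpv4, Slc4a5, Car12, Abca4, Cldn2 and Tmem72. It called 40 of 20933 genes in that direction (0.191%). At unadjusted p under 0.05, 0 members were lower, against 5.7% of all genes. Within the R libraries alone (2 against 2), Atp2b3 and Spint2 were lower at that threshold, where 16.1% of all genes were. In whole tissue, more cells of a type and more RNA per cell cannot be told apart.

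**Figure D1:**
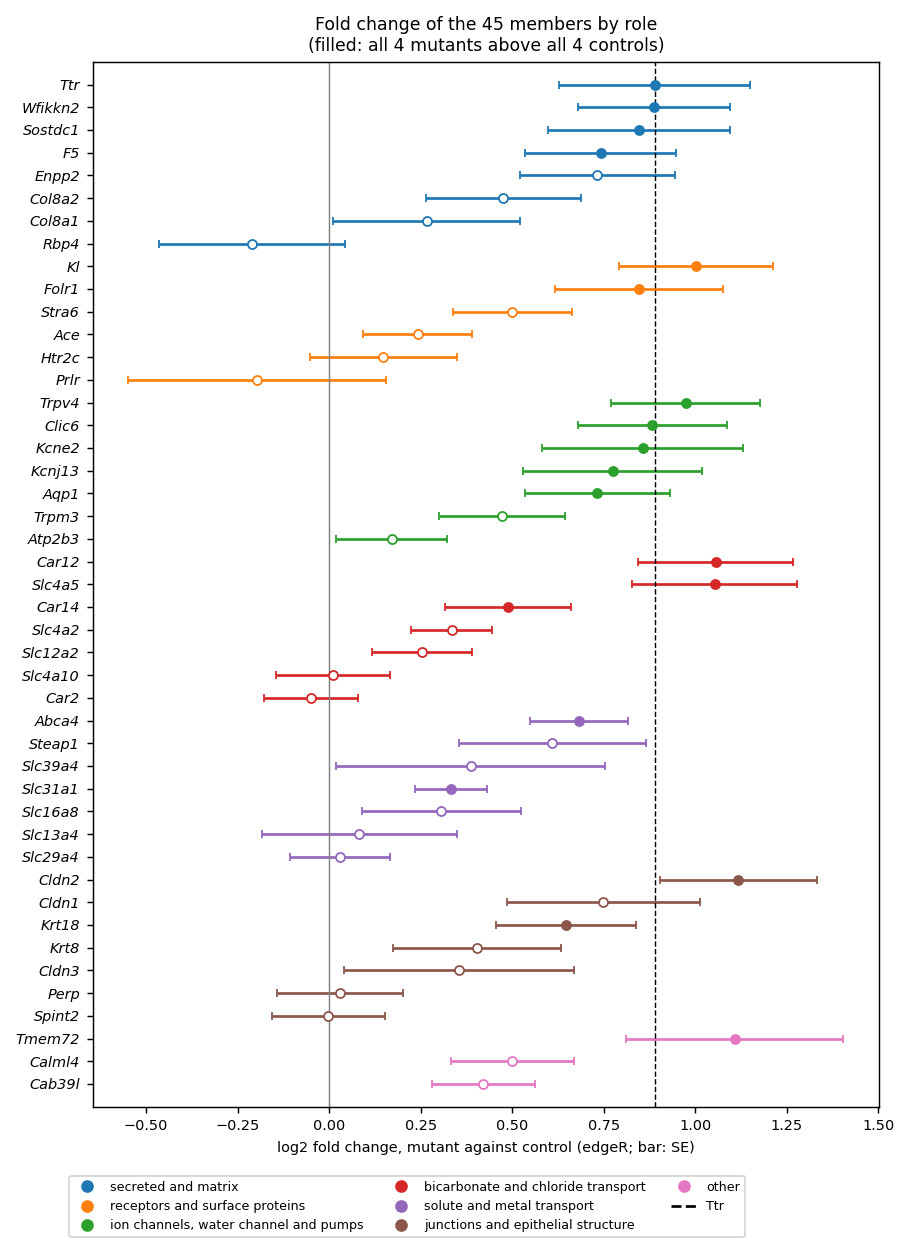
Log2 fold change of mutants against controls for each of the 45 genes, with SE as the bar, grouped by role. Filled points are the 19 genes in which all 4 mutants lay above all 4 controls, and the dashed line is the value of Ttr, 0.89. The points run from -0.21 to 1.12 with no gap, and the filled ones from 0.33 for Slc31a1 to 1.12 for Cldn2.

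Secreted proteins were led by Ttr, on chromosome 18, which carries thyroid hormone and retinol-binding protein in the fluid. Its level was 1248, 2956, 2619 and 2800 CPM in controls 1 to 4 and 3198, 5673, 4530 and 4426 CPM in mutants 1 to 4. Control 1 stood well below the other controls, mutant 2 was the highest library, and the groups did not overlap. The means were 2406 ± 784 CPM in controls and 4457 ± 1011 CPM in mutants (SD, n = 4), with a log2 fold change of 0.89 (SE 0.26). Without control 1 that value was 0.67. The 4 exon bins of Ttr gave 0.81 to 0.89.

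Wfikkn2, a secreted protease inhibitor that binds growth factors of the TGF-beta family, also had control 1 lowest and mutant 2 highest. It stood at 10.4, 18.6, 17.0 and 15.4 CPM in controls and 25.6, 39.4, 24.6 and 24.0 CPM in mutants, and its log2 fold change was 0.89 (SE 0.21). F5, coagulation factor V, was at 1.97, 2.07, 2.28 and 1.78 CPM in controls and 2.41, 3.78, 3.09 and 4.27 CPM in mutants. Its groups did not overlap either, but its highest library was mutant 4 and control 1 was not low. Sostdc1, a secreted antagonist of BMP and WNT signalling, ranged from 9.33 to 25.2 CPM in controls and 28.7 to 40.4 CPM in mutants. Enpp2 makes lysophosphatidic acid outside the cell, and its log2 fold change was 0.73 with control 2 (440 CPM) inside the mutant range of 407 to 541 CPM.

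The other secreted and matrix genes departed from Ttr. Rbp4, which carries retinol, was at 4.18, 7.10, 6.85 and 3.15 CPM in controls and 3.81, 4.38, 5.44 and 4.80 CPM in mutants, and its log2 fold change was -0.21 (SE 0.25). Controls 2 and 3 held its highest values. The collagens Col8a1 and Col8a2 had log2 fold changes of 0.27 and 0.48, and both overlapped between groups, with control 2 at 30.3 and 30.4 CPM.

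Among receptors and surface proteins, Kl and Folr1 went with Ttr. Kl encodes Klotho, a co-receptor for FGF23, and stood at 7.09, 12, 9.0 and 10.5 CPM in controls and 15.0, 26.9, 18.9 and 16.5 CPM in mutants (log2 fold change 1.0, SE 0.21). Folr1, the receptor that moves folate across the epithelium, was at 11.4, 26.5, 19.4 and 21.2 CPM in controls and 27.3, 44.3, 36.2 and 33.7 CPM in mutants (log2 fold change 0.85, SE 0.23). In both genes control 1 was lowest and mutant 2 highest, with no overlap. Stra6, a retinol uptake receptor, had a log2 fold change of 0.50, and its lowest mutant, at 12.5 CPM, lay under the highest control, at 13.7 CPM.

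The remaining receptors did not separate the groups. Prlr, the prolactin receptor, was at 5.85, 4.92, 2.92 and 3.57 CPM in controls and 6.30, 4.43, 2.48 and 1.97 CPM in mutants. The P libraries of both groups were higher than the R libraries of both groups, and the log2 fold change of -0.20 had an SE of 0.35. Leaving out mutant 1 gave -0.56 and leaving out mutant 4 gave 0.018. Htr2c, the serotonin 2C receptor that neurons also use, had a log2 fold change of 0.15 (45.5 to 80.7 CPM over all libraries). Ace, the angiotensin-converting enzyme, which endothelium also makes, had 0.24 (43.5 to 77.4 CPM).

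**Figure D2:**
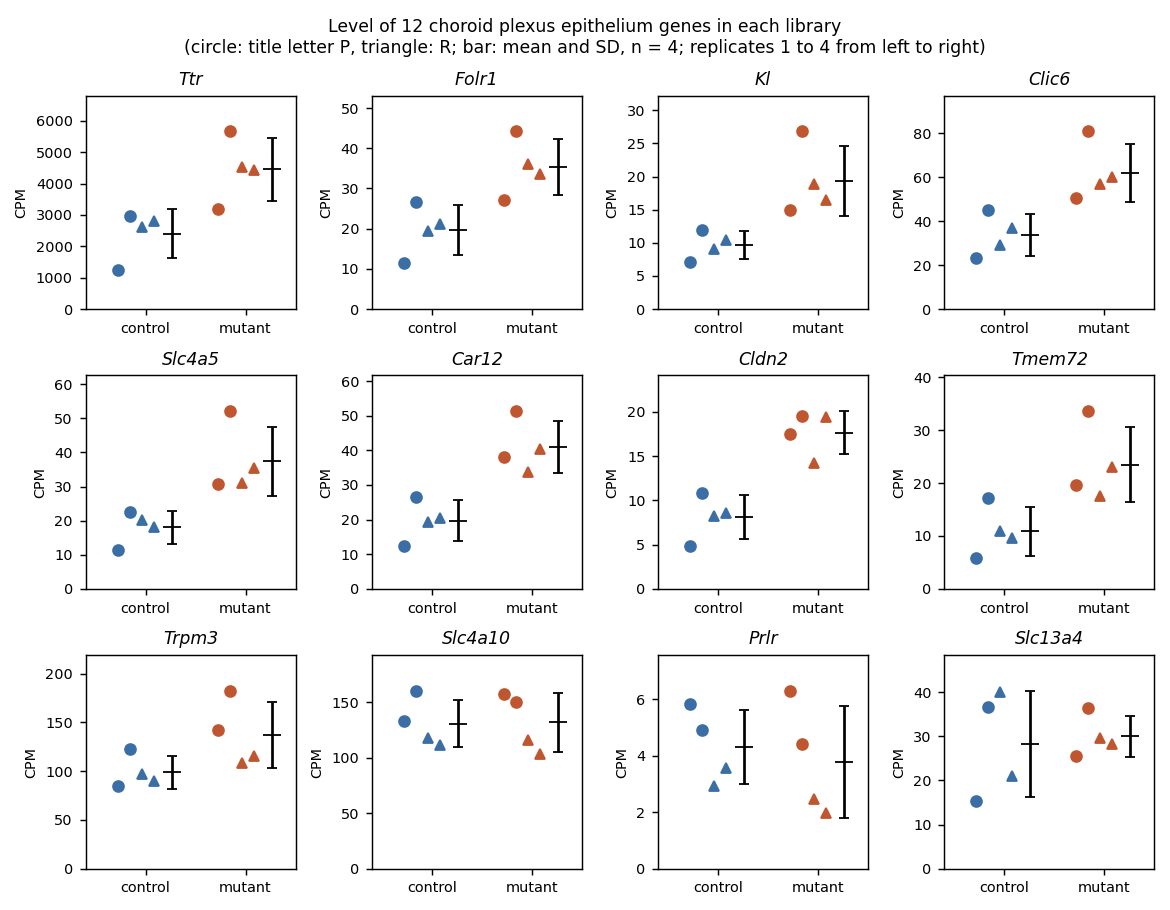
Level in CPM of 12 members in each library, with controls in blue and mutants in orange, circles for title letter P, triangles for R, and the mean and SD of 4 libraries as black bars. Ttr, Folr1, Kl, Clic6, Slc4a5, Car12, Cldn2 and Tmem72 have control 1 lowest, mutant 2 highest and no overlap of the groups, while Trpm3, Slc4a10, Prlr and Slc13a4 overlap.

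All 7 genes of channels, the water channel and pumps had positive log2 fold changes, against 52.3% of all genes tested. In 5 of them all mutants lay above all controls, against 3.6% of all genes. Clic6, a chloride channel family protein, stood at 23.4, 45.1, 29.3 and 36.9 CPM in controls and 50.3, 81.0, 56.9 and 60.2 CPM in mutants (log2 fold change 0.88, SE 0.20). Trpv4, a calcium-permeable channel that responds to osmotic stretch, was at 3.14, 4.02, 4.48 and 5.21 CPM in controls and 6.56, 10.9, 8.27 and 7.29 CPM in mutants, with 0.97 (SE 0.20). Aqp1, the apical water channel, ranged from 16.7 to 35.8 CPM in controls and 38.8 to 52.7 CPM in mutants. The potassium channel genes Kcnj13 and Kcne2 had log2 fold changes of 0.77 and 0.86, again without overlap.

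Atp2b3 and Trpm3, which neurons also express, differed from those 5. Atp2b3, a plasma membrane calcium pump, was at 84.7, 90.9, 101 and 93.7 CPM in controls and 115, 134, 85.8 and 82.0 CPM in mutants. Both P mutants lay above every control, and both R mutants lay under controls 3 and 4. Its log2 fold change was 0.50 within P and -0.24 within R. The difference between letters passed over all genes tested (edgeR adjusted p = 0.0393), as it did for 505 of 15789 genes. Trpm3, a cation channel, was at 84.8, 123, 97.3 and 90.4 CPM in controls and 142, 182, 108 and 116 CPM in mutants, and its log2 fold change was 0.47 (SE 0.17). Its R mutants lay under control 2.

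Genes of bicarbonate and chloride transport ran from differences as large as that of Ttr down to none in mean. Car12, a membrane carbonic anhydrase, was at 12.3, 26.6, 19.4 and 20.4 CPM in controls and 38.2, 51.3, 33.6 and 40.5 CPM in mutants (log2 fold change 1.06, SE 0.21). Slc4a5, an apical sodium bicarbonate cotransporter, was at 11.3, 22.5, 20.2 and 18.0 CPM in controls and 30.8, 52.1, 31.1 and 35.4 CPM in mutants, also 1.05 (SE 0.23). The groups of both genes were apart. Car14, a further membrane carbonic anhydrase, was apart too, with a smaller 0.49 (SE 0.17).

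Slc4a10, a basolateral bicarbonate transporter that is also neuronal, was at 133, 160, 118 and 112 CPM in controls and 158, 150, 116 and 104 CPM in mutants. Its means were 131 ± 21.5 and 132 ± 26.2 CPM (SD, n = 4), and the P libraries of each group lay above the R libraries of both groups. Car2, the cytosolic carbonic anhydrase that oligodendrocytes and blood cells also hold, had a log2 fold change of -0.05. Slc12a2, the sodium, potassium and chloride cotransporter of many cell types, had 0.25, and the anion exchanger gene Slc4a2 had 0.33.

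Of the solute and metal transporters, Abca4 and Slc31a1 separated the groups. Abca4, a lipid flippase for retinoids, was at 16.0, 20.6, 18.2 and 15.5 CPM in controls and 26.2, 34.2, 25.4 and 26.9 CPM in mutants (log2 fold change 0.68, SE 0.13), and all 49 of its tested exon bins were higher. Slc31a1, the copper importer found in most cells, was at 84.0, 106, 85.4 and 88.9 CPM in controls and 113, 115, 107 and 124 CPM in mutants. Its log2 fold change was 0.33 (SE 0.10), a small difference with little spread. Steap1, a metalloreductase family gene, had 0.61 and overlapped.

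Slc29a4, a monoamine transporter that is also neuronal, was at 68.1, 68.6, 94.9 and 92.0 CPM in controls and 68.7, 89.1, 88.2 and 84.1 CPM in mutants, and its log2 fold change was 0.03 (SE 0.14). Slc13a4, a sulfate transporter also made by meninges, was at 15.4, 36.7, 40.1 and 21 CPM in controls and 25.5 to 36.5 CPM in mutants. Controls 2 and 3, its highest libraries, were also the highest for the meningeal gene Aldh1a2, at 45.8 and 47.7 CPM against 21.2 and 22.1 CPM in controls 1 and 4. The part of meninges in the Slc13a4 and Rbp4 values was not tested. The lactate transporter gene Slc16a8 had 0.31, and the zinc importer gene Slc39a4, at 0.23 to 0.93 CPM over all libraries, had 0.39 (SE 0.37).

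Junction genes gave the largest and the smallest differences. Cldn2, a tight junction claudin that lets sodium and water pass between cells, was at 4.88, 10.8, 8.27 and 8.59 CPM in controls and 17.5, 19.5, 14.3 and 19.4 CPM in mutants. Its log2 fold change of 1.12 (SE 0.21) was the highest among the 45. Cldn1, a sealing claudin, had 0.75 with overlap, and Cldn3, at 1.28 to 3.54 CPM over all libraries, had 0.35 (SE 0.32). Of the simple-epithelium keratins, Krt18 was at 3.29, 4.88, 4.71 and 4.60 CPM in controls and 5.03, 8.08, 7.78 and 6.47 CPM in mutants, without overlap. Its usual partner Krt8 overlapped, with 0.40.

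Spint2, a membrane inhibitor of serine proteases, was at 29.0, 33.0, 42.9 and 40.4 CPM in controls and 32.7, 45.1, 36.5 and 30.8 CPM in mutants. Its log2 fold change was 0.32 within P and -0.34 within R, and that difference did not pass over all genes (edgeR adjusted p = 0.14). Perp, a desmosome gene, had 0.03. Among the rest, Tmem72, a membrane protein gene, was at 5.89, 17.1, 10.9 and 9.62 CPM in controls and 19.7, 33.6, 17.5 and 23.0 CPM in mutants (log2 fold change 1.11, SE 0.30). Cab39l, whose product is a scaffold for the kinase LKB1, was at 41.7, 63.1, 41.4 and 41.5 CPM in controls and 62.5, 67.0, 59.1 and 62.9 CPM in mutants. Calml4, a calmodulin-like gene, was at 7.32, 12.4, 8.45 and 8.69 CPM in controls and 11.4, 13.5, 14.3 and 13.0 CPM in mutants. Control 2 reached the mutant range in both Cab39l and Calml4.

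Promoter sequences are shown for 3 members, each among the 2 of smallest unadjusted p in its role, in which all mutants lay above all controls and a searched motif was in the window from 250 bases before to 50 bases after the start. The windows are RefSeq's, of build GRCm38.p6, whereas the counts were made on mm9. The motifs were TAATCC, the core bound by homeodomain factors such as Otx2, the forkhead core GTAAACA, and the TATA box core TATAAA, on both strands. Capitals mark a match on either strand, and the sequences run 5′ to 3′ along the gene.
Cldn2 (chrX:139800558-139800857, plus strand): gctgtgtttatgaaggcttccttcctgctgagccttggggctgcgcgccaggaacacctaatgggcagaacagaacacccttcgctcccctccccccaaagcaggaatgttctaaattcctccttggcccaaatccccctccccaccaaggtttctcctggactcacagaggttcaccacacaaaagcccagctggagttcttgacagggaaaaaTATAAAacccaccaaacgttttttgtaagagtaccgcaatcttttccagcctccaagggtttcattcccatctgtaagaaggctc
Slc4a5 (chr6:83237125-83237424, plus strand): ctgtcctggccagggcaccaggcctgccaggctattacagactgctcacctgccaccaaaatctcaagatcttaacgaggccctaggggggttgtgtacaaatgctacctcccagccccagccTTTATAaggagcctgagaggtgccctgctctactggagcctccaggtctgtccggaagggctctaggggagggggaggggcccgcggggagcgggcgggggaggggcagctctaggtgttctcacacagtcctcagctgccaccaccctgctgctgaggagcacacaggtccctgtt
Abca4 (chr3:122044210-122044509, plus strand): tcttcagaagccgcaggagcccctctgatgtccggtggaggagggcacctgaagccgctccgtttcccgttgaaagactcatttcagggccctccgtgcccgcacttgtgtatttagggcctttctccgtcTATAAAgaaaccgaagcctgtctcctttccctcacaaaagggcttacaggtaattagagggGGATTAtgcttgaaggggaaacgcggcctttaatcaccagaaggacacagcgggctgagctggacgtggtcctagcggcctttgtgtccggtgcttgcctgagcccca

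Of the 45 members, 35 had at least 1 window in the table, 47 windows in all. TAATCC was in 3 of the 47 windows (6.38%), those of Abca4, Ace and Car14, against 7.06% of all 32851 windows. GTAAACA was in 2 (4.26%, Prlr and Rbp4), against 3.65% of all. TATAAA was in 9 (19.1%), against 13.6% of all. The TATAAA of Cldn2 begins 35 bases before the start. A match describes the letters only.

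To see whether members moved in one ratio, each was taken as its count per 1000 counts of Ttr in the same library. This quantity needs no library size, and it compares a gene only with itself across libraries. Folr1 kept the steadiest ratio. It had 9.17, 8.98, 7.41 and 7.59 counts per 1000 Ttr counts in controls and 8.53, 7.80, 7.99 and 7.61 in mutants, a range of 1.24-fold, while the CPM of Ttr itself ranged from 1248 to 5673. Sostdc1 had 7.46 ± 0.80 in controls and 7.40 ± 1.1 in mutants (SD, n = 4). Slc4a5 had 7.71 ± 1.08 and 8.42 ± 1.25, Clic6 had 14.6 ± 3.23 and 14.1 ± 1.33, and Kl had 4.24 ± 1.0 and 4.34 ± 0.48 (SD, n = 4). For these 5 the ratio differed between groups by less than the spread between libraries. They are among the members with the steadiest ratio over all 8 libraries. That measure includes the difference between groups, so the comparison is a description only.

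Other members had lower ratios to Ttr in mutants. Slc4a10 had 107, 54.2, 45.1 and 40.0 counts per 1000 Ttr counts in controls and 49.4, 26.4, 25.6 and 23.4 in mutants. Car2 had 66.1, 30.5, 28.3 and 27.5 in controls and 25.5, 16.0, 17.9 and 13.4 in mutants, with all mutants below all controls. In 5 of the 44 members other than Ttr (Slc4a2, Car2, Slc16a8, Slc29a4 and Spint2) all mutants lay below all controls in this ratio, against 47.3% of all genes tested. In 0 did all mutants lie above, against 0.0127%. The count of 5 was 9 without control 4 (53.7% of all genes) and 18 without mutant 1 (83.7% of all genes), the mutant with the lowest Ttr level. The log2 difference in the ratio, mutant minus control, ran from -1.22 for Prlr to 0.23 for Tmem72 with a median of -0.43, while the median over all genes was -0.93. Without control 1 these medians were -0.25 and -0.64. With the summed counts of the members other than Ttr and the gene itself as the reference, they were 0.06 and -0.44, so the direction of the members' median depends on the reference. After Enpp2, the highest control means in that sum were those of Slc4a10, Trpm3, Slc12a2 and Atp2b3. Their log2 fold changes were 0.01, 0.47, 0.25 and 0.17.

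The ratio to Ttr differed among members. Those whose levels separated the groups had a median log2 difference in the ratio to Ttr of -0.04 (18 genes, from -0.60 for Slc31a1 to 0.23), and those whose levels overlapped had -0.63 (26 genes, from -1.22 to -0.14). This split rests on the same fold changes and is given as a description only. With the summed other members as the reference, in 2 members all mutants lay below the controls, against 18.4% of all genes, and in 6 all lay above, against 0.108%.

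**Figure D3:**
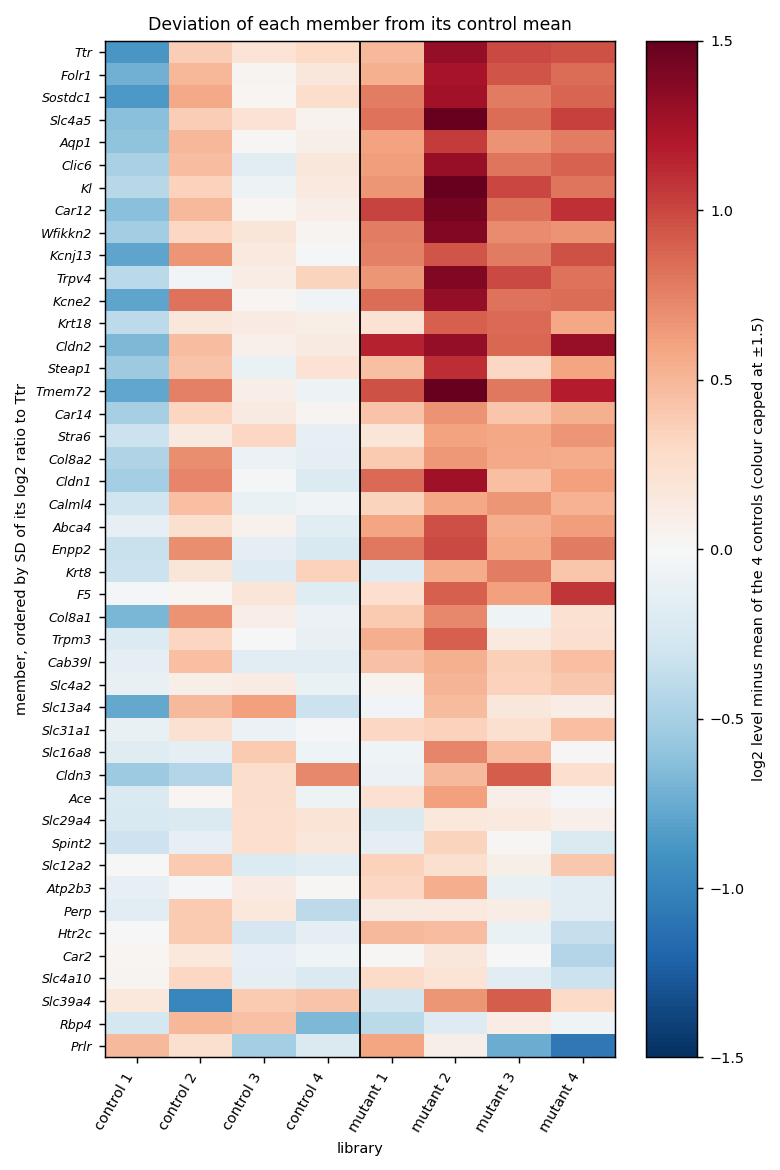
Colour gives the log2 level of each member in each library less its mean over the 4 controls, capped at ±1.5, with members ordered from the steadiest to the least steady ratio to Ttr. Most upper rows share 1 pattern, blue in control 1, red in control 2 and deepest red in mutant 2, and the pattern fades toward Prlr in the last row. Among the upper rows, Trpv4 is at -0.04 in control 2, and Kcnj13 is slightly higher in mutant 4 than in mutant 2.

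The spread among the controls alone bears on the same question without the genotype. Control 1 had a median deviation over the 45 members of -0.33 (log2) from the control mean and control 2 had 0.37, against 0.08 in control 3 and -0.05 in control 4. The mutants stood at 0.43, 0.72, 0.57 and 0.53. In 19 of 44 members the SD of the log2 ratio to Ttr over the 4 controls was smaller than the SD of the log2 level, which held for 2.21% of all genes tested. For Sostdc1 the SD was 0.61 as a level and 0.15 as a ratio, for Folr1 0.51 and 0.16, for Cldn2 0.48 and 0.17, and for Kcnj13 0.60 and 0.26. For Slc4a10 it was 0.23 as a level and 0.63 as a ratio, and for Car2 0.13 and 0.60. Among the 4 mutants the ratio was steadier for 21 of the 44 members, against 9.61% of all genes. Without control 1 the count among controls was 30 of 44, but then 40% of all genes were steadier as a ratio too. With the summed other members as the reference the count was 32, against 13.8% of all genes.

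**Figure D4:**
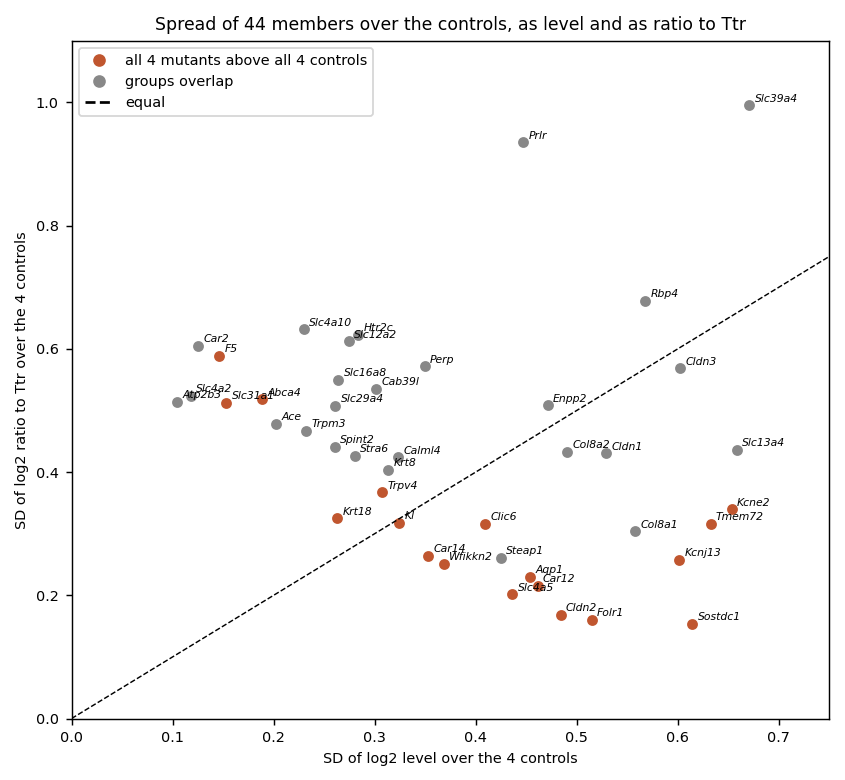
Each point is a member, with the SD of its log2 level over the 4 controls on the x axis and the SD of its log2 ratio to Ttr on the y axis. Points under the dashed line, 19 of 44, vary less as a ratio to Ttr than as a level, with Sostdc1 and Folr1 lowest, while Slc4a10, Car2 and F5 lie above it.

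Genes with a mean of at least 1 CPM (14704) were ranked by the SD of the log2 ratio to Ttr over all 8 libraries. Folr1 was first (SD 0.12) and Sostdc1 second (0.17). Of the first 20, 13 were members, against 43 of all 14704. Other members ranked far lower, down to 10249 for Rbp4 and 14277 for Prlr. This ranking includes the difference between groups. The 5 genes outside the list with the smallest SD were Rbm47, Paqr5, Eps8l2, Lbp and Gdf7. Rbm47, an RNA-binding protein of epithelia, was at 2.48, 4.72, 4.30 and 3.85 CPM in controls and 5.69, 10.5, 5.97 and 6.80 CPM in mutants (SD 0.20). Paqr5 had an SD of 0.27, as did Eps8l2, Lbp and Gdf7. Gdf7, a BMP family ligand of the roof plate, stood at 0.46 to 0.96 CPM in controls and 1.09 to 2.06 CPM in mutants (log2 fold change 0.99, SE 0.30).

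In the exon bin counts, 41 members had at least 2 tested bins, 469 bins in all, of which 418 were higher in mutants (51.7% of all 152302 tested bins were). In 29 members every tested bin was higher, among them all 25 of Slc4a5, all 27 of Enpp2 and all 11 of Car12. The share of all genes with every bin higher was not computed. Bins of 1 gene are not independent, so this count is a description only. A test of whether a gene's bins changed unevenly called 0 members by Simes' method (edgeR, smallest adjusted p 1.0), against 0.00749% of all 13351 genes tested. The gene-level F test also called 0 members, against 0.0225% of all genes. By Simes' method 1 member stood at an unadjusted p under 0.05, against 0.232%.

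That member was Trpm3, on chromosome 19, and without control 2 it passed over all genes. Its bins are numbered as in the authors' table, and those named here were chosen after their values were seen. Bin 11 was at 2.15, 6.58, 2.53 and 2.91 CPM of the bin counts in controls and 8.63, 12.5, 5.62 and 8.35 in mutants, a log2 fold change of 1.30, and bin 12 had 1.05. Control 2 of bin 11 lay above mutant 3, so its groups overlapped. The bins just after them, 13 to 18, had log2 fold changes of 0.03 to 0.24, with bin 14 at 2.08, 2.85, 2.63 and 1.89 CPM in controls and 2.53, 2.98, 2.02 and 2.17 in mutants. The first tested bin, number 2, had -0.33, and bin 3 had 1.03. The difference of bin 11 from the rest of the gene did not pass over all bins (edgeR adjusted p = 0.54), and the bins were not matched to transcripts here.

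**Figure D5:**
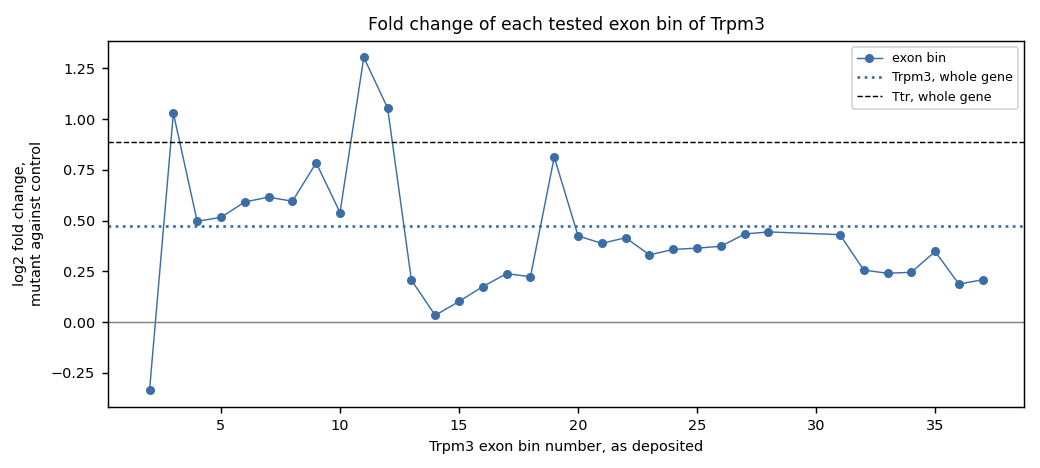
Log2 fold change, mutant against control, of each tested exon bin of Trpm3 in the order of their numbers, with the whole-gene values of Trpm3 (dotted, 0.47) and Ttr (dashed, 0.89). Bins 3, 11 and 12 lie above the Ttr line at 1.03, 1.30 and 1.05, and bins 13 to 18 lie between 0.03 and 0.24.

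Further genes of the tissue came from lists that are not among the 45. Over all genes tested, 52.3% were higher in mean and 6.94% were higher at an unadjusted p under 0.05. In 3.6% all mutants lay above all controls. Of 13 regulators of roof plate and choroid plexus, 11 had positive log2 fold changes, 5 had an unadjusted p under 0.05 (Otx2, Gdf7, Rfx2, Rfx3 and Hes1, all higher), in 2 the groups did not overlap, and the median was 0.35. Otx2, a homeodomain factor that choroid plexus development requires, was at 25.2, 29.8, 22.9 and 24.4 CPM in controls and 33.1, 45.7, 39.2 and 46.4 CPM in mutants. Unlike most members it was not low in control 1. Of 17 tested further choroid epithelium genes, 12 were higher and 5 lower in mean, and 2 had an unadjusted p under 0.05 (Lbp and Sgms2). Their log2 fold changes ran from -0.54 to 0.55 with a median of 0.18, and in 1 all mutants lay above all controls. The summed level of this list was not higher in mutants, at 1500 to 1602 CPM in controls and 1070 to 1534 CPM in mutants. Atp1b1, a sodium pump subunit that neurons hold at high levels, had a log2 fold change of -0.43. Of 12 tested genes of motile cilia, which this epithelium also bears, 11 were higher in mean and 1, Gmnc, had an unadjusted p under 0.05, with a median of 0.17. Gmnc, a switch for the multiciliated fate, was at 4.88, 7.26, 3.56 and 3.57 CPM in controls and 9.75, 9.80, 8.09 and 9.26 CPM in mutants.

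Markers of some other cell types also differed between the groups. Over all genes tested, 6.94% were higher and 5.7% lower at an unadjusted p under 0.05, and 3.6% had all mutants above all controls. All 10 endothelial markers had positive log2 fold changes, 6 with an unadjusted p under 0.05, a median of 0.33 and a summed level of 285 to 357 CPM in controls and 303 to 443 CPM in mutants. Plvap and Esm1, of the leaky capillaries, were lower in mean, at -0.33 and -0.10. Of 10 meningeal and stromal markers 8 were lower in mean (median -0.22), 2 of them at an unadjusted p under 0.05. The 10 summed to 561.7 to 991 CPM in controls and 612 to 764 CPM in mutants, highest in control 2. All 8 Hox genes of the hindbrain behind the cerebellum were lower in mean (log2 fold changes -0.97 to -0.50, median -0.87). Of these, 0 had an unadjusted p under 0.05. They summed to 98.0 to 123 CPM in controls and 5.02 to 110 CPM in mutants, lowest in mutant 4. Of the granule precursor markers, all 8 were higher in mean (median 0.51), 6 of them at an unadjusted p under 0.05. The 8 summed to 1298 to 1522 CPM in controls and 1405 to 2635 CPM in mutants. The 6 genes of cerebellar territory were all higher in mean as well, with a median of 0.43 near that of the members and sums of 278 to 411 CPM in controls and 329 to 589 CPM in mutants. Of these, Zic4 had an unadjusted p under 0.05 and no overlap. Of 5 pericyte markers 4 were higher in mean (median 0.33), with 2 higher and 1 lower at an unadjusted p under 0.05. All 8 microglia and macrophage markers were lower (median -0.34), 3 of them at that threshold. The part of these cell types, and of how much choroid plexus was dissected, in the members' differences was not tested. Liver, another source of Ttr, Rbp4 and F5, left 2 to 5 counts of Alb and 3 to 8 of Afp per library. The 6 liver markers summed to 1.17 to 1.39 CPM in controls and 1.11 to 1.42 CPM in mutants. The 1 that was tested had a log2 fold change of -0.85 (SE 0.36), with an unadjusted p under 0.05. Rpe65, of the pigment epithelium of the eye, which shares many members, had 0 to 2 counts. The 7 pigment epithelium markers summed to 44.1 to 58.6 CPM in controls and 45 to 67.5 CPM in mutants, mostly Rlbp1, a gene that glia also express. Of the 4 tested, 3 were higher in mean (median 0.14), and Tyr, at 0.23 to 0.41 CPM in controls and 0.44 to 0.60 CPM in mutants, did not overlap (log2 fold change 0.79). The part of liver and of this pigment epithelium was not tested.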

How the data were processed

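PolyA RNA of 8 whole cerebella, each from a separate pup, was extracted with TRIzol and made into Illumina TruSeq libraries, per the labels' protocols. The authors deposited raw counts per gene and per exon bin. The submitters' processing notes name TopHat, HTSeq, DESeq2 and mm9 and no versions. The sources used here give neither annotation nor strand setting, so overlapping antisense genes cannot be told apart. Summary lines (24.8 to 34.3% of the gene table's entries) were left out.

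The main test was edgeR 4.0.16 (R 4.3.3; quasi-likelihood, robust, filterByExpr, TMM, genotype only, two-sided), with Benjamini-Hochberg adjustment over all genes at 0.05. The SE is the log2 fold change divided by the root of its F value. Ratios to Ttr used counts plus 0.5, and exon bins were tested with diffSpliceDGE. Scripts were tested on simulated data. Alternatives were DESeq2 1.42.0, RLE factors, no filter, the title letter as a term, each letter alone, another ratio reference and each library left out.

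Members and lists were chosen with earlier results of these data known. Values in every library are given, by rule, for Ttr and in each role for the 2 members of smallest and the 1 of largest unadjusted p. Other members shown that way were chosen after their values were seen.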

Additional observations from a re-analysis of the deposited data

Results flagged for a closer look

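In 6 of 90 groups of 4 libraries, 1 library stood apart from the other 3, about what chance gives (1 in 20 groups). Control 2 was high for Enpp2 (440 CPM, others 215 to 247) and for Cab39l (63.1 CPM, others 41.4 to 41.7). Mutant 2 was high for Wfikkn2 (39.4 CPM, others 24.0 to 25.6) and for Kcne2 (39.2 CPM, others 27.7 to 28.1). Control 3 was high for Slc16a8 (5.30 CPM, others 3.56 to 3.85), and mutant 4 was low for Perp (11.2 CPM, others 13.5 to 13.8). The genotype effect on Atp2b3 differed between the title letters, R minus P, by -0.72 on the log2 scale (edgeR adjusted p = 0.0393), as it did at that threshold for 505 of 15789 genes.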

How the results depend on the processing

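DESeq2 called 9 members (edgeR 0) of 52 called among 20933 genes, and Sufu (log2 fold change -0.60, adjusted p = 0.00121). With 2 against 2 libraries, 14 members were higher at an unadjusted p under 0.05 within P (5.57% of all genes) and 28 within R (14.1%), where 2 were lower. Mutants lay above controls without overlap in 30 members within P (22.4% of all genes) and 30 within R (32.4%). With the summed other members as reference, the median log2 difference in the ratio turned from -0.43 to 0.063. All mutant ratios lay below the controls in 2 members (18.4% of all genes) and above them in 6 (0.108%). Over the controls, 32 members were steadier as a ratio (13.8% of all genes). The title letter as a term turned Spint2 to 0.0085. Within P Spint2 was at 0.32, and within R Rbp4 was at 0.0018, Atp2b3 at -0.24, Slc4a10 at -0.095 and Slc29a4 at -0.14. The cause of these changes was not tested.

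Leaving out 1 library at a time gave 0 called members each time, 22 to 30 members higher at an unadjusted p under 0.05 (3.01 to 9.52% of all genes), 18 to 27 without overlap (3.67 to 7.49%), and a median log2 fold change of 0.40 (without control 1) to 0.58 (without control 2). It gave 5 to 18 members with all ratios to Ttr below the controls (47.4 to 83.7% of all genes), a median ratio difference of -0.52 to -0.25, 16 to 30 members steadier as a ratio (2.14 to 40%), and 0 to 1 in exon bin use. Log2 fold changes ran from -0.56 to 0.018 for Prlr, -0.10 to 0.11 for Slc4a10, -0.059 to 0.12 for Slc29a4 and -0.14 to 0.088 for Spint2, and for Sufu from -0.65 to -0.53. No paired analysis was possible because the labels give no replicate numbers that the groups share. Members near 1 CPM or below, such as Slc39a4, rest on few counts.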
